A study of Mus musculus with 6 samples.

Results

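The 38 genes of the autophagy machinery were examined in liver RNA of mice on an MCD diet. They were taken by gene symbol from a list of ULK, VPS34 and ATG conjugation genes, LC3 and GABARAP genes, cargo receptors and the factors Tfeb and Tfe3. All 38 were found among the 34745 genes of the table, and all 38 had counts high enough to be tested. All mice had been fed the diet, deficient in methionine and choline and in use as a model of fatty, inflamed liver, for 6 weeks. One group was labelled Sox9f/f, which carries a floxed Sox9 gene, with 3 libraries (replicates 5, 6 and 8). The other was labelled Sox9HKO, with 3 libraries (replicates 9, 10 and 12). The labels do not spell out which cells were to lose Sox9 or what drove the loss, and give neither age nor sex. Both groups were on the diet, so nothing here compares the diet with a normal one. In the text below, values for the 3 libraries of a group are given in that replicate order.

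Autophagy encloses cytoplasm in a double membrane and delivers it to the lysosome. The ULK1 kinase complex starts the process, the VPS34 complex marks the membrane with a phosphoinositide, and a ubiquitin-like conjugation system attaches LC3 and GABARAP proteins to the growing membrane, where receptors dock their cargo. In hepatocytes it degrades lipid droplets, mitochondria and protein aggregates. Much of it is set by phosphorylation, lipidation and degradation of the proteins, which RNA counts do not measure.

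Each library held 22826962 to 27286864 counts over all genes. Sox9 itself went against its label as read here, with counts of 127, 138 and 143 under the label Sox9f/f and of 411, 491 and 626 under Sox9HKO, so directions below are between labels and do not rest on a loss of Sox9 seen in these data. The 10 hepatocyte markers were present, which go with the labelled tissue, and summed to between 99840 and 107300 CPM, counts adjusted for the depth of each library, under the label Sox9f/f and between 82900 and 89390 under Sox9HKO. The 7 cholangiocyte markers, with Sox9 itself among them, summed to between 56.3 and 73.1 CPM against 131 to 233. The 9 stellate cell markers summed to between 528 and 648 against 724 to 958, and the 8 macrophage markers to between 430.3 and 681 against 622 to 977. The 6 neutrophil markers lay between 6.47 and 13.2 against 14.0 to 21.8, the 8 T, NK and B cell markers between 1.93 and 4.16 against 3.34 to 6.01, and the 6 endothelial markers between 342 and 368 against 289 to 403. All tested markers of the cholangiocyte (6), stellate cell (9), macrophage (8), neutrophil (4) and T, NK and B cell (6) lists had positive log2 fold changes, libraries labelled Sox9HKO over those labelled Sox9f/f, 8 of 10 hepatocyte markers had negative ones, and no list held a marker at 0 in every library. The part of these cell type differences in the values below was not tested, and in whole liver fewer cells of a type and less RNA per cell cannot be told apart.

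No autophagy gene passed the threshold in edgeR between the labelled genotypes, 1 did in DESeq2, and the genes of the pathway did not share a direction. The edgeR quasi-likelihood test with Benjamini-Hochberg adjustment over all 14137 genes tested called 0 of the 38 genes at an adjusted p under 0.05. Its share of the whole table was 0% too. Even Sox9, 3.32-fold higher under the label Sox9HKO, missed that threshold (edgeR adjusted p = 0.083), so the count of 0 says little by itself. The unadjusted p was under 0.05 for 5 of 38 genes (13.2%), against 19.8% of all genes tested. Of these, Rb1cc1 and Atg14 had positive log2 fold changes (2 genes, where 9.74% of all genes tested were on that side) and Atg4b, Map1lc3a and Atg4d negative ones (3 genes, against 10.1%). The groups did not overlap in CPM in 9 of 38 genes (23.7%), against 26.5% of all genes tested. Rb1cc1, Atg14 and Nbr1 lay above (3 genes, against 12.2%) and Pik3r4, Atg9a, Atg4b, Map1lc3a, Sqstm1 and Tfe3 below (6 genes, against 14.3%). Which genes were apart depended on the scale. The TMM scaling factors used for CPM were 0.953 to 0.976 under the label Sox9f/f and 1.025 to 1.065 under Sox9HKO. In the authors' FPKM, Pik3r4, Atg9a and Tfe3 overlapped, while Pik3c3, Uvrag, Atg12, Optn, Tax1bp1 and Calcoco1 also lay above. The share of all genes apart in FPKM was not counted, so these genes cannot be read as an excess. All genes tested also leaned higher on that scale. In limma on log2(FPKM + 0.5) their median log2 fold change was 0.07. At an unadjusted p under 0.05 in that fit, 2095 were higher and 633 lower. Below, overlap refers to CPM. DESeq2, run beside edgeR, called 1 of the 38, Rb1cc1, higher (2.31% of all genes tested were) and 0 lower (1.97%), where it called 4.28% of the table in either direction. Read against these backgrounds, the counts are near or under those of the whole table. The median log2 fold change of the 38 genes, libraries labelled Sox9HKO over those labelled Sox9f/f, was -0.06, with 16 positive and 22 negative, beside a median of 0.00 over all genes tested. The sign of that median turned to 0.05 with library-size scaling, which by itself moved the median of all genes by 0.11. It was 0.01 without Sox9f/f replicate 5. Library-size scaling also brought the negative values nearer to 0, to -0.17 for Atg13, -0.03 for Pik3r4, -0.09 for Atg9a, -0.05 for Wipi2 and -0.20 for Atg16l1. In size, the changes were small: 35 of 38 genes had an absolute log2 fold change under 0.5, and the median absolute value was 0.19, beside 0.24 over all genes tested. The median within-group SD was also lower, at 0.16 on the log2 CPM scale against 0.23 over all genes tested. All genes tested were not matched to the 38 for level of counts. Whether level bears on the smaller changes or the lower SD was not tested.

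**Figure D1:**
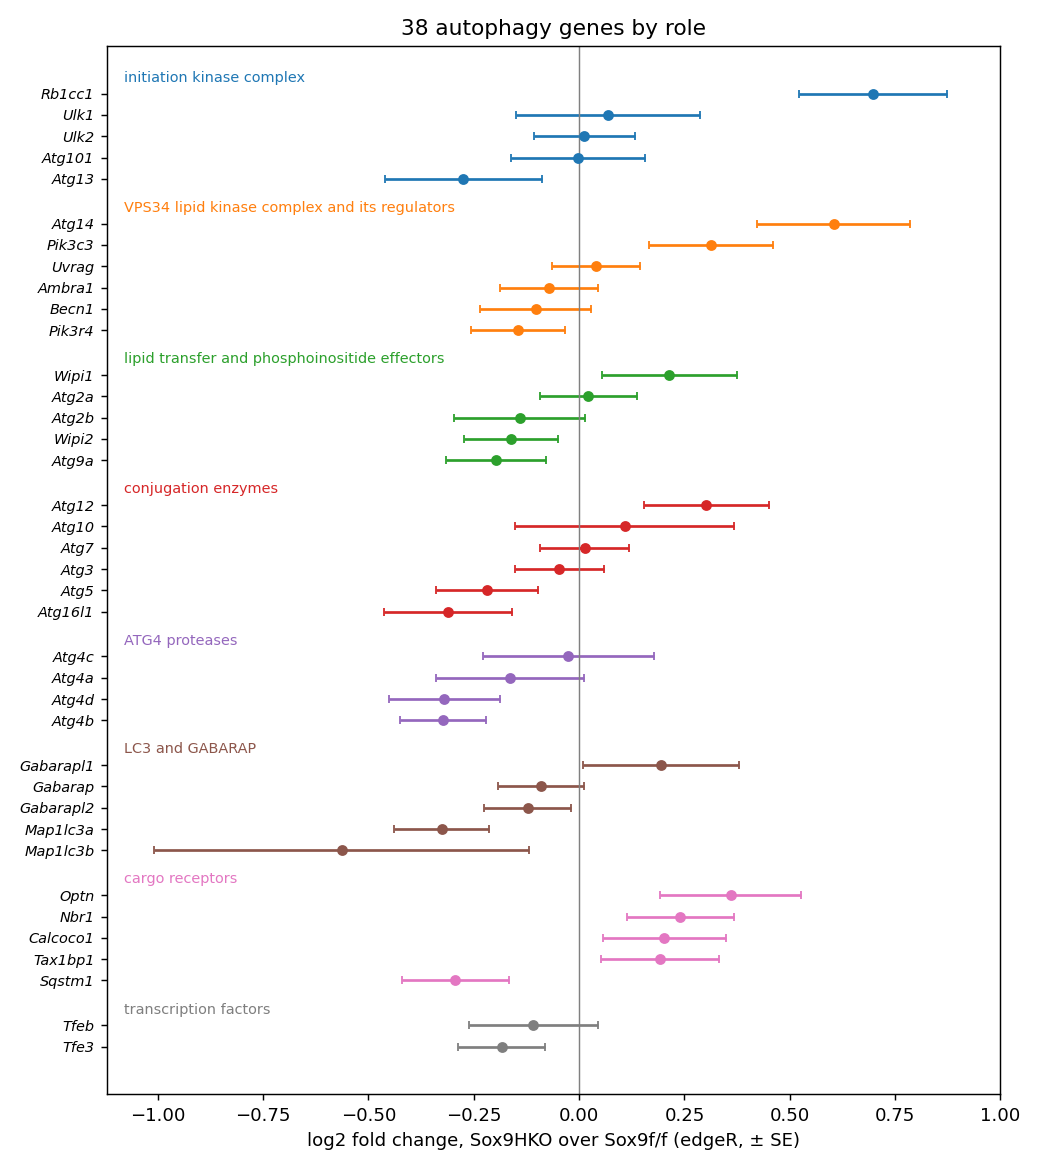
Log2 fold change of each of the 38 autophagy genes (x axis, libraries labelled Sox9HKO over those labelled Sox9f/f, edgeR, bars ± SE), grouped by role (y axis, gene symbols). Rb1cc1 at 0.70 and Atg14 at 0.60 lie farthest right, the 4 Atg4 genes lie left of 0, and Map1lc3b at -0.56 has the widest bar and stood at 0.27 without Sox9f/f replicate 5. The sign of Atg4c, at -0.03, turned with library-size scaling, as did those of Atg101, Becn1, Ambra1, Atg3, Gabarap and Tfeb.

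The levels of the genes spanned a wide range. The authors' FPKM values, which scale counts by the length of the gene model and by library depth, put the cargo receptor Sqstm1 first at a mean of 158 FPKM over the 6 libraries, followed by Gabarapl1 at 118 and Gabarap at 70.7. The lowest was Rb1cc1 at 0.632 FPKM. The gene length implied by the deposited values was between 0.427 times (Atg4d) and 4.36 times (Atg16l1) the longest annotated transcript, so the order of the middle genes depends on that length. Scaled instead by the longest transcript, Sqstm1, Gabarapl1 and Gabarap again ranked 1 to 3 of 38, and Rb1cc1 again ranked 38. Raw counts of single genes ran from 72 (Atg10) to 32918 (Sqstm1) per library.

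**Figure D2:**
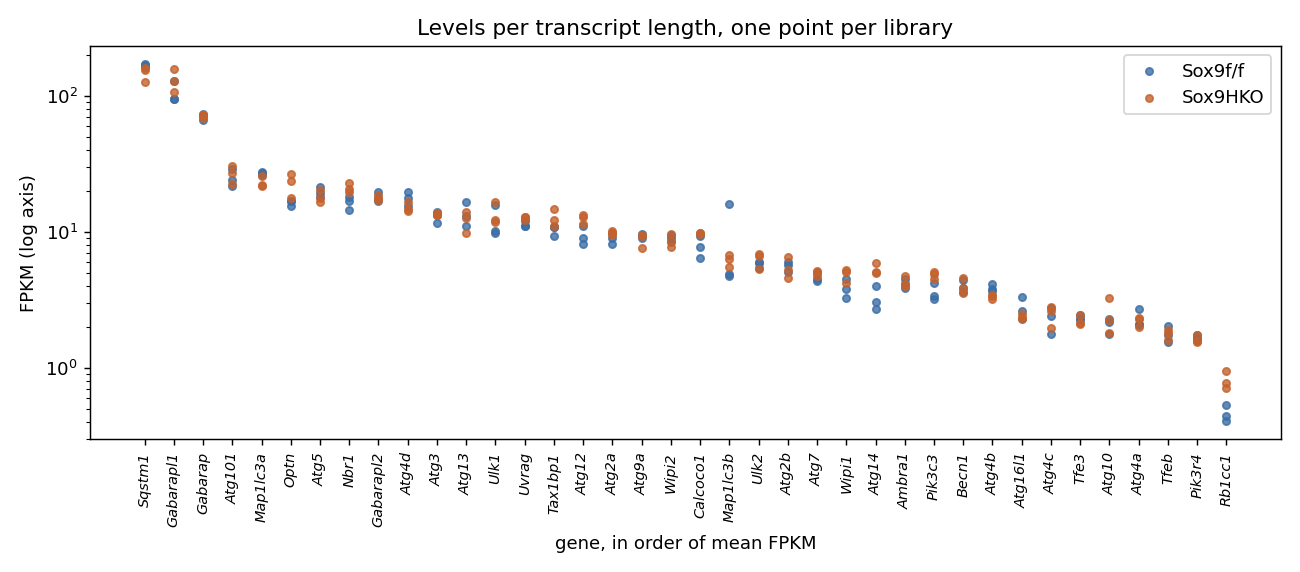
FPKM of each autophagy gene (y axis, log scale) with 1 point per library, in order of the mean (x axis, gene symbols). Sqstm1, Gabarapl1 and Gabarap stand above the rest at means of 158, 118 and 70.7 FPKM, and Rb1cc1 is lowest at 0.632 FPKM.

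The first role is initiation. The ULK kinases are activated by AMPK, the kinase named in the series title, and sit in a complex with the scaffold proteins encoded by Rb1cc1 (FIP200), Atg13 and Atg101. Rb1cc1 (ENSMUSG00000025907, chromosome 1 from 6206197 to 6276648, plus strand, in the coordinates of the table) stood at 12.6, 9.51 and 10.2 CPM under the label Sox9f/f and at 16.2, 15.5 and 20.6 CPM under Sox9HKO. All 3 libraries labelled Sox9HKO lay above the other group, with means of 10.8 ± 1.59 (SD, n = 3) and 17.4 ± 2.78 CPM. Its log2 fold change was 0.70 ± 0.17 (SE), or 1.62-fold, with an edgeR adjusted p of 0.146 and a DESeq2 adjusted p of 0.0251. With trends on length and GC content taken out of each library, the log2 fold change was 0.43 (edgeR adjusted p = 0.281), and it was 0.44 on log2(FPKM + 0.5), a scale that compresses a gene this low. An antisense gene, 4732440D04Rik, overlaps Rb1cc1 and held 24, 24 and 26 counts against 36, 35 and 52, where Rb1cc1 held 275, 247 and 252 against 435, 420 and 568, and Gm13961 is a close copy of part of its transcript. Whether the counting used strand is not stated, and without it overlapping reads of both genes cannot be told apart.

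Atg13 did not share that pattern. It stood at 126, 84.3 and 96.5 CPM against 85.3, 69.3 and 99.0, with overlapping groups and a log2 fold change of -0.27 ± 0.19 (edgeR adjusted p = 0.432), which was -0.09 without Sox9f/f replicate 5 and -0.15 without Sox9HKO replicate 10. The kinase genes Ulk1 and Ulk2 and the ATG13 partner Atg101 had log2 fold changes of 0.07, 0.01 and -0.00, each of a sign that turned in at least 3 of 15 alternative settings.

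The second role is the VPS34 lipid kinase complex. Pik3c3 encodes the kinase, Pik3r4 and Becn1 its constant partners, and Atg14 or Uvrag the subunit that directs it to autophagy or to endosomes. Atg14 (ENSMUSG00000037526, chromosome 14 from 47540894 to 47568434, minus strand) stood at 14.3, 11.0 and 9.50 CPM under the label Sox9f/f and at 16.3, 19.8 and 16.7 CPM under Sox9HKO. The groups did not overlap, with means of 11.6 ± 2.46 and 17.6 ± 1.90 CPM (SD, n = 3). The log2 fold change was 0.60 ± 0.18, or 1.52-fold, with an edgeR adjusted p of 0.160 and a range from 0.48 to 0.79 over the alternative settings. On the other strand Atg14 overlaps the antisense gene Gm49004 and the pseudogene Gm6616, so the limit on strand given for Rb1cc1 holds for it too.

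Pik3c3 stood at 23.6, 17.9 and 18.5 CPM against 22.7, 25.5 and 26.3, and Sox9f/f replicate 5 lay inside the range of the other group. Its log2 fold change was 0.31 ± 0.15 (edgeR adjusted p = 0.282). Uvrag, at 0.04, and Becn1, at -0.10, had overlapping groups, as did Ambra1, a Beclin 1 regulator, at -0.07. Pik3r4 had groups that did not overlap, at 24.7, 27.1 and 25.1 CPM against 24.4, 22.4 and 22.8, but a log2 fold change of only -0.14 ± 0.11 (edgeR adjusted p = 0.488), -0.09 without Sox9f/f replicate 6. The 6 genes of the complex and its regulators thus had values on both sides of 0, with 3 positive and 3 negative. The signs of Becn1 and Ambra1 turned with library-size scaling, and that of Uvrag when the length and GC trend was removed.

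The third role is membrane growth. Atg9a encodes a scramblase carried in vesicles, Atg2a and Atg2b lipid transfer proteins, and Wipi1 and Wipi2 readers of the VPS34 lipid. Atg9a stood at 105, 112 and 110.3 CPM against 98.9, 82.8 and 104, groups that just failed to overlap, with a log2 fold change of -0.20 ± 0.12 (edgeR adjusted p = 0.384) and -0.10 without Sox9HKO replicate 10. It overlaps Ankzf1 on the other strand and the transcript Gm29253 on its own strand, which held between 97 and 366 counts. Wipi2 stood at 119.8, 112 and 124 CPM against 115, 107 and 96.6, a log2 fold change of -0.16 ± 0.11 (edgeR adjusted p = 0.441) that was -0.10 without Sox9HKO replicate 12. The other 3 genes lay between -0.14 (Atg2b) and 0.21 (Wipi1), all with overlapping groups.

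The conjugation genes had values on both sides of 0, with 3 positive and 3 negative, the signs of Atg3, Atg7 and Atg10 turning under some settings. Atg7 and Atg3 encode the E1-like and E2-like enzymes for LC3, Atg10 the E2-like enzyme for ATG12, and Atg5, Atg12 and Atg16l1 the complex that acts as the ligase. Atg12 stood at 28.7, 23.4 and 20.8 CPM against 30.0, 27.5 and 32.3 (log2 fold change 0.30 ± 0.15, edgeR adjusted p = 0.299). Its partner Atg16l1 stood at 38.6, 56.4 and 44.0 CPM against 35.3, 37.1 and 39.6 (-0.31 ± 0.15, edgeR adjusted p = 0.299). Both pairs of groups overlapped through Sox9f/f replicate 5, and the value of Atg16l1 was -0.13 without Sox9f/f replicate 6, while that of Atg12 was 0.20 without Sox9f/f replicate 8 and 0.16 with the length and GC trend removed. Atg3 hardly varied across the libraries labelled Sox9HKO, at 44.5, 44.4 and 44.7 CPM against 47.3, 41.8 and 49.0. Of the 6 conjugation genes, 0 had groups that did not overlap and 0 an unadjusted p under 0.05 in edgeR. DESeq2 called 0.

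TFEB and TFE3 are known to bind CACGTG motifs in promoters of lysosomal and autophagy genes, so the start regions of the 38 genes were searched for these letters. RefSeq promoter sequences (GRCm38.p6, 250 bases before to 50 after the start) were at hand for 32 of the 38. CACGTG, which reads the same on both strands, was found in 4 of 32 (12.5%), Atg3, Atg5, Atg7 and Atg14, against 8.09% of all 27025 genes in the table of promoters. The longer TCACGTGA, which contains it, was found in 1 of 32, Atg3, against 1.12% of genes. The FOXO motif GTAAACA and the ATF4 and CHOP motif TGATGCAA, on either strand, were found in 0 of 32, against 4.05% and 1.03% of genes. The 250 bases before the start are shown for Atg3 and Atg5, as examples of how the motif sits in a core conjugation gene. The RefSeq start of Atg3 lies inside the gene as the table has it (from 45158785), so the last bases shown for it fall within the gene, while both of its motifs lie before 45158785. Capitals mark CACGTG, and both sequences read 5′ to 3′ on the plus strand, from chr16:45158579-45158828 for Atg3 and chr10:44268089-44268338 for Atg5.
Atg3: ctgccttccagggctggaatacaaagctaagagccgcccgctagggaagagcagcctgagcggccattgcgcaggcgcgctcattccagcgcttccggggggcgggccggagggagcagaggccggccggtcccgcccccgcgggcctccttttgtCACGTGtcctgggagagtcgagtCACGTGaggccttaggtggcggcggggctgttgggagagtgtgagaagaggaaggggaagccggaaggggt
Atg5: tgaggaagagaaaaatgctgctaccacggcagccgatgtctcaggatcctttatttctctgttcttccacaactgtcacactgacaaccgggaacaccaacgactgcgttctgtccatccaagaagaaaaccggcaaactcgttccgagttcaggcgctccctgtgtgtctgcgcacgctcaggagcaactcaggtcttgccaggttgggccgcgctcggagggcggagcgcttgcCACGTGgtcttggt
In Atg3 the motif begins 94 and 71 bases before the start, and in Atg5 14 bases before it. These are matches of letters, and binding was not measured. The 4 genes with the motif had log2 fold changes on both sides of 0, at -0.05 ± 0.11 for Atg3, -0.22 ± 0.12 for Atg5, 0.01 ± 0.11 for Atg7 and 0.60 ± 0.18 for Atg14 (edgeR adjusted p = 0.828, 0.344, 0.953 and 0.160).

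The ATG4 proteases trim LC3 and GABARAP before conjugation and release them from membranes afterwards. All 4 of their genes had negative log2 fold changes, with a median of -0.24, although the sign of Atg4c (-0.03) turned with library-size scaling. Atg4b (ENSMUSG00000026280, chromosome 1 from 93751500 to 93790610, plus strand), the family member most active on LC3, stood at 40.1, 41.7 and 44.1 CPM against 33.1, 32.5 and 34.9. The groups were tight and well apart, with means of 42.0 ± 2.03 and 33.5 ± 1.25 CPM (SD, n = 3). The log2 fold change was -0.32 ± 0.10 (edgeR adjusted p = 0.170).

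Atg4d (ENSMUSG00000002820, chromosome 9 from 21265299 to 21274368, plus strand) stood at 40.6, 52.0 and 46.1 CPM against 33.8, 40.9 and 36.5. Sox9HKO replicate 10 reached just above Sox9f/f replicate 5, so these groups overlapped. The log2 fold change was -0.32 ± 0.13 (edgeR adjusted p = 0.236), and -0.21 without Sox9f/f replicate 6. With library-size scaling Atg4b and Atg4d stood at -0.21 each, while the median of all genes stood at 0.11. Atg4b overlaps Thap4 and Atg4d overlaps Kri1 on the other strand, and Atg4b has a close copy, Gm2774. Atg4a stood at -0.16 ± 0.18 and has a close copy, Atg4a-ps, with 32 to 65 counts per library, so its counts are uncertain.

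The LC3 and GABARAP genes encode the ubiquitin-like proteins that coat the autophagosome. Map1lc3a (ENSMUSG00000027602, chromosome 2 from 155276297 to 155278073, plus strand) stood at 71.7, 73.5 and 67.3 CPM under the label Sox9f/f and at 52.7, 63.1 and 53.7 CPM under Sox9HKO. All 3 libraries labelled Sox9HKO lay below the other group, with means of 70.8 ± 3.17 and 56.5 ± 5.71 CPM (SD, n = 3). The log2 fold change was -0.33 ± 0.11 (edgeR adjusted p = 0.188). With the length and GC trend removed it was -0.10, and with library-size scaling -0.22.

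Map1lc3b, whose product is the LC3 form most used as a marker of autophagosomes, differed between libraries in another way. The gene (ENSMUSG00000031812, chromosome 8 from 121590361 to 121598760, plus strand) stood at 175, 54.0 and 50.8 CPM under the label Sox9f/f and at 54.8, 64.7 and 69.7 CPM under Sox9HKO. Sox9f/f replicate 5 held 3832 counts, where the other 5 libraries held between 1252 and 1920. The fitted log2 fold change of -0.56 ± 0.44 (edgeR adjusted p = 0.495) rested on that library, since it was 0.27 (edgeR adjusted p = 0.342) without Sox9f/f replicate 5. Zcchc14, which overlaps Map1lc3b on the other strand, did not share the excess, at 938 counts in Sox9f/f replicate 5 and 1173 to 1449 in the others. Gm20388, which overlaps Map1lc3b on its own strand, held 0 counts in all 6 libraries. Whether the counting moved reads between overlapping gene models was not tested. Map1lc3b was the only 1 of the 38 genes whose highest library stood at least 2 times above the next (2.63%, beside 1.28% of all genes tested).

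Gabarap and Gabarapl2 were steadier than Map1lc3b, while Gabarapl1 varied more than either of them. Gabarap stood between 224 and 251 CPM in all 6 libraries, with a log2 fold change of -0.09 ± 0.10 whose sign turned with library-size scaling. Gabarapl2 stood at -0.12 ± 0.10 and resembles 6 other annotated transcripts at 90% identity or more, so its counts are uncertain. Gabarapl1 ran from 311 CPM in Sox9f/f replicate 8 to 489 in Sox9HKO replicate 12, with overlapping groups and a log2 fold change of 0.20 ± 0.19 (edgeR adjusted p = 0.578). That value was 0.0251 without Sox9HKO replicate 12, 0.11 without Sox9f/f replicate 8, 0.36 without Sox9f/f replicate 5 and 0.32 without Sox9HKO replicate 10.

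**Figure D3:**
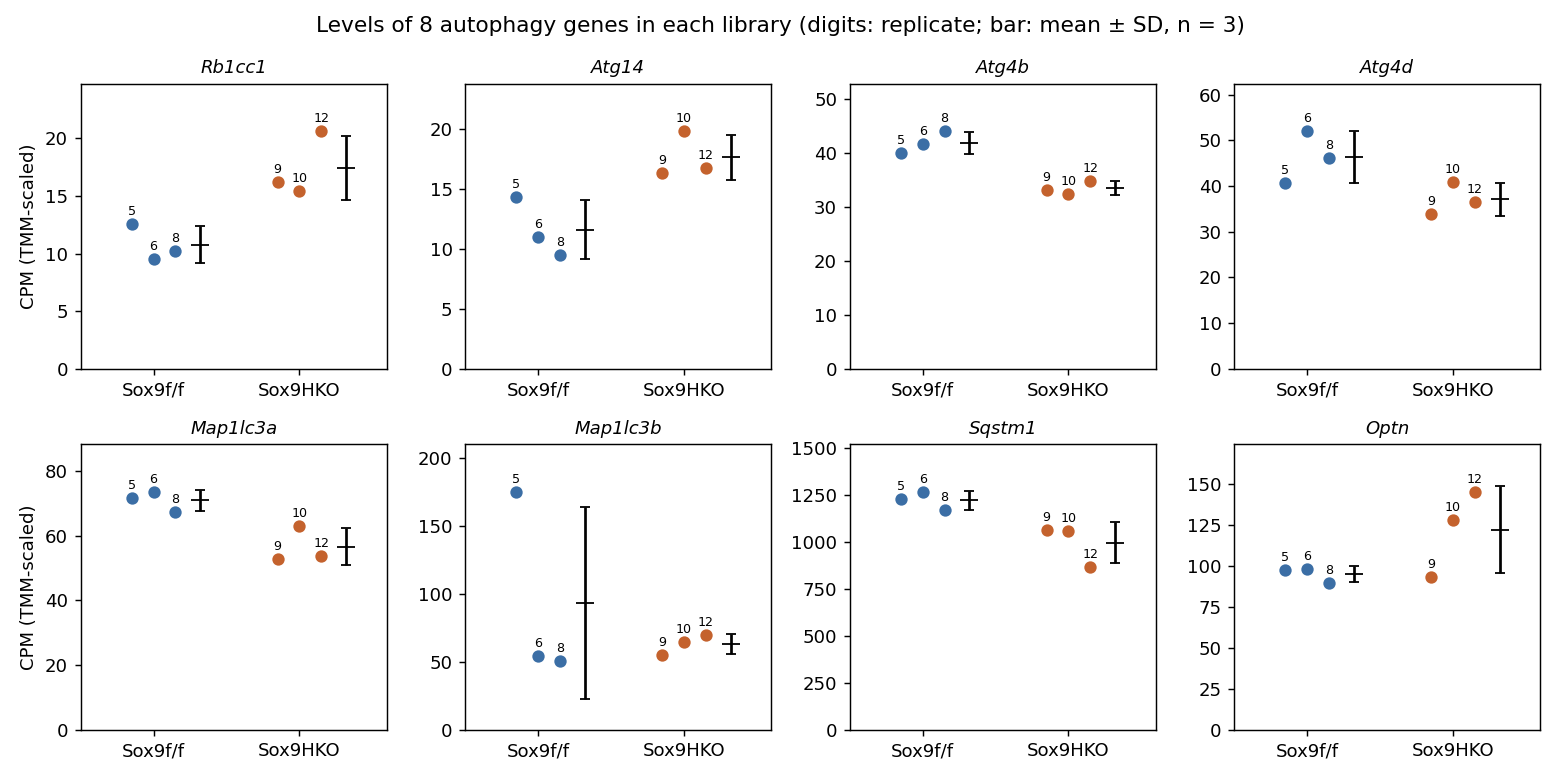
CPM of 8 autophagy genes (y axes, from 0) by labelled genotype (x axes), with 1 point per library marked by its replicate number and the mean ± SD (n = 3) beside it. Rb1cc1 and Atg14 are higher and Atg4b, Map1lc3a and Sqstm1 lower in all 3 libraries labelled Sox9HKO, and Map1lc3b in Sox9f/f replicate 5 stands alone at 175 CPM.

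Among the cargo receptors, Sqstm1 stood apart from the other 4. Sqstm1 encodes p62, which binds ubiquitinated cargo and LC3 and is itself degraded by autophagy. The gene (ENSMUSG00000015837, chromosome 11 from 50199366 to 50210827, minus strand) stood at 1231, 1267 and 1168 CPM under the label Sox9f/f and at 1064, 1059 and 869 CPM under Sox9HKO. All 3 libraries labelled Sox9HKO lay below the other group, with means of 1222 ± 49.9 and 997 ± 111 CPM (SD, n = 3). The log2 fold change was -0.29 ± 0.13 (edgeR adjusted p = 0.253), -0.19 with the length and GC trend removed and -0.18 with library-size scaling. In the authors' FPKM the groups were barely apart, at 162.5 in Sox9f/f replicate 8 and 161.5 in Sox9HKO replicate 9. Sqstm1 overlaps Mrnip on the other strand.

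Optn, the ubiquitin-binding receptor optineurin, stood at 97.5, 98.2 and 89.3 CPM against 92.9, 128 and 145. Sox9HKO replicate 9 lay within the Sox9f/f range and the other 2 above it. Its log2 fold change was 0.36 ± 0.17 (edgeR adjusted p = 0.276), and 0.21 without Sox9HKO replicate 12. Nbr1, a receptor related to p62, stood at 207, 167 and 189 CPM against 211, 209 and 245, so that the groups narrowly did not overlap. The log2 fold change of Nbr1 was 0.24 ± 0.13 (edgeR adjusted p = 0.327), 0.16 without Sox9HKO replicate 12 and 0.14 with the length and GC trend removed. Tax1bp1 and Calcoco1 stood at 0.19 ± 0.14 and 0.20 ± 0.15, with overlapping groups. The value of Tax1bp1 was 0.05 without Sox9HKO replicate 12 and 0.04 with the length and GC trend removed, and that of Calcoco1 was 0.07 without Sox9f/f replicate 8 and 0.35 without Sox9f/f replicate 5. The receptors thus had 4 positive values and 1 negative, with a median of 0.20. At an unadjusted p under 0.05 in edgeR there were 0 of 5, and DESeq2 called 0.

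Tfeb and Tfe3 encode related transcription factors that enter the nucleus when mTORC1 is inactive and drive lysosomal and autophagy genes. Tfeb stood at 16.7, 19.6 and 14.5 CPM against 15.5, 17.1 and 14.5, fully overlapping, with a log2 fold change of -0.11 ± 0.15 (edgeR adjusted p = 0.716) whose sign turned with library-size scaling. Tfe3 stood at 48.4, 52.9 and 48.8 CPM against 47.0, 42.9 and 42.2. These groups narrowly did not overlap, at a log2 fold change of -0.18 ± 0.10 (edgeR adjusted p = 0.353), or -0.07 with library-size scaling. Location of the proteins, through which both factors are mainly controlled, was not measured.

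Another 56 genes of the pathway, in lists chosen with earlier results of these data known, were read from the same test. In edgeR 0 of these passed. At an unadjusted p under 0.05 it gave 14 of 56 (25.0%, beside 19.8% of all genes tested). Of these, 7 had higher values (9.74% of all genes tested did at that p) and 7 lower ones (10.1%). The median log2 fold change was 0.03. DESeq2 called 3 of the 56, 1 higher and 2 lower, where it called 4.28% of all genes tested. One was Bcl2, whose protein binds Beclin 1, at 1.51, 1.39 and 1.18 CPM against 2.39, 3.06 and 3.20 (log2 fold change 1.09 ± 0.25, edgeR adjusted p = 0.144, DESeq2 adjusted p = 0.0278). Another was the stress factor Ddit3 (CHOP), at 25.5, 40.0 and 28.2 CPM against 12.7, 9.47 and 6.65 (-1.70 ± 0.27, edgeR adjusted p = 0.139, DESeq2 adjusted p = 2.39e-06). The last was the forkhead factor Foxk2, which in mouse represses autophagy genes, at 33.4, 49.5 and 52.6 CPM against 29.2, 25.1 and 29.5 (-0.69 ± 0.18, edgeR adjusted p = 0.151, DESeq2 adjusted p = 0.0365). In all 3 genes the groups did not overlap, which adds no support, since a test on the same libraries picked them. Among the 56 genes the groups did not overlap in 18 (32.1%), against 26.5% of all genes tested.

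The list of 11 transcriptional regulators had 6 genes (54.5%) under an unadjusted p of 0.05 in edgeR, where 19.8% of all genes tested were. Higher values were seen in 3 (Mitf, Fnip1 and Fnip2) and lower ones in 3 (Ddit3, Foxk2 and Atf4). Since the lists were chosen with earlier results known, the shares of single lists here cannot show an excess over all genes. Atf4, a stress factor that acts upstream of Ddit3 and is named here after its values were seen, stood at 128, 267 and 146 CPM against 111, 75.0 and 105, groups that did not overlap (-0.90 ± 0.28, edgeR adjusted p = 0.170, DESeq2 adjusted p = 0.05002). Fnip1, a folliculin partner named for the same reason, stood at 40.9, 19.6 and 21.9 CPM against 43.9, 43.0 and 45.8, with Sox9f/f replicate 5 close to the other group (0.69 ± 0.26, edgeR adjusted p = 0.208). Foxk1, in the same list as Foxk2 and also named after its values were seen, had the opposite sign. It stood at 59.0, 26.4 and 22.1 CPM against 49.6, 57.5 and 55.1, with overlapping groups (0.59 ± 0.33, edgeR adjusted p = 0.352). Of the 6 partners and negative regulators of VPS34, 3 were under an unadjusted p of 0.05 in edgeR (50%), Bcl2 with higher values and Bcl2l1 and Rubcn with lower ones.

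The anti-apoptotic gene Bcl2l1, related to Bcl2, stood at 70.6, 21.5 and 50.5 CPM against 29.0, 24.4 and 18.7 (-0.98 ± 0.38), with overlapping groups. Of the 14 genes for fusion with the lysosome, 1 (7.14%) was under an unadjusted p of 0.05 in edgeR, Vps41 of the HOPS tether, at 0.30 ± 0.12, followed by the SNARE gene Ykt6 at -0.28 ± 0.13. Of the 17 organelle receptor and mitophagy genes, 4 were (23.5%), 2 with higher and 2 with lower values, led by Phb2, an inner mitochondrial membrane receptor, at -0.35 ± 0.12 and Wdfy3, an aggregate-clearing scaffold, at 0.32 ± 0.11. Phb2 stood at 319, 315 and 319.6 CPM against 228, 242 and 278, all 3 libraries labelled Sox9HKO below the others. The 8 genes of membrane source and expansion had 0 under an unadjusted p of 0.05 in edgeR and DESeq2 called 0, with Zfyve1 at 0.35 ± 0.17 and Wdr45b at -0.27 ± 0.14.

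**Figure D4:**
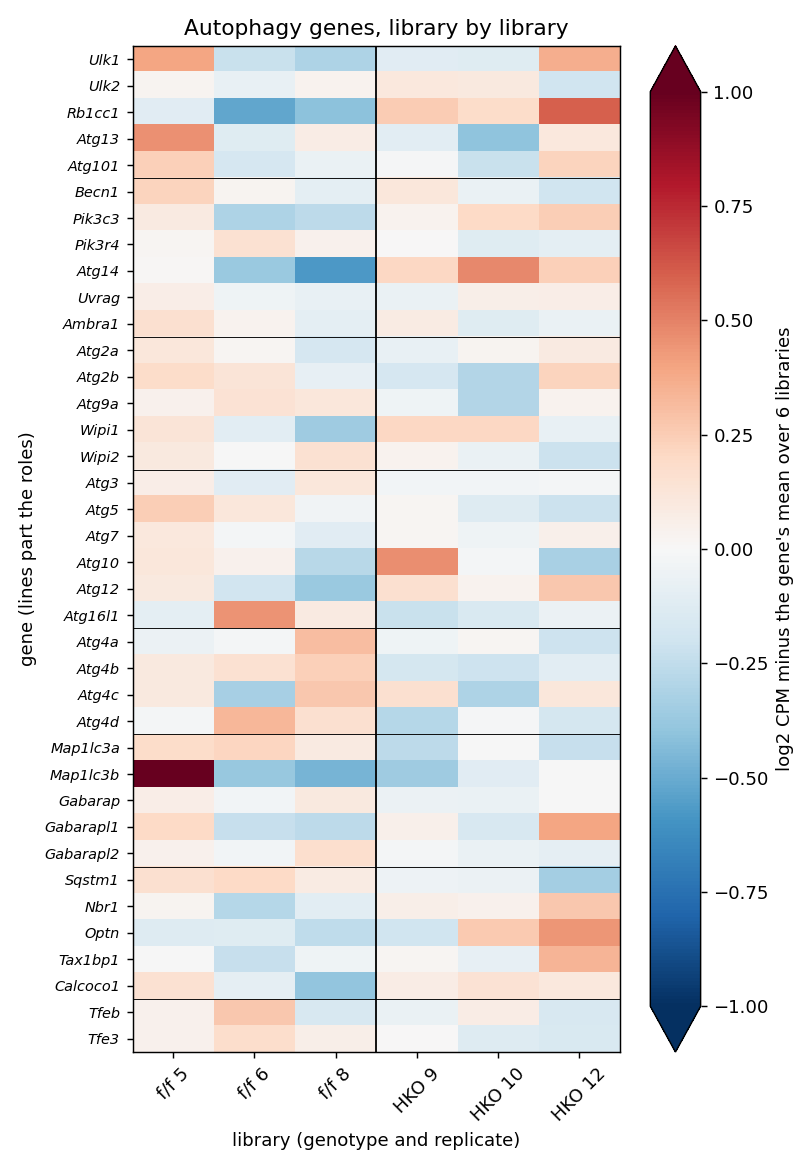
Each autophagy gene (rows, parted by role) in each of the 6 libraries (columns), as log2 CPM minus the mean of that gene over all libraries (colour, ending at -1 and 1). Rb1cc1 and Atg14 are blue or near white in the Sox9f/f columns and red in the Sox9HKO columns, Sox9f/f replicate 5 and Sox9HKO replicate 12 are both high for Ulk1 and Gabarapl1, and Sox9f/f replicate 5 alone is high for Map1lc3b.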

How the data were processed

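Mouse liver RNA-seq of 6 libraries, 3 labelled Sox9f/f and 3 labelled Sox9HKO, was grouped by the genotype label. Per the file headers, the authors deposited raw counts of each gene, beside FPKM values of their own. Per the submitters' processing notes, HISAT2 2.0.4 and StringTie 1.3.0 belong to the processing, as do GRCm38.p4 and mm10, in roles that are not stated. The counting tool and its strand setting were not given in the sources used here. Nothing says whether each library is 1 animal. The p-values set the difference between labels against the spread between these libraries, which may not be the spread between animals.

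The test on counts was that of edgeR 4.0.16 under R 4.3.3 (filterByExpr, TMM scaling, robust quasi-likelihood test, two-sided, no covariates). The filter kept 14137 genes and left out 20608, and p-values were Benjamini-Hochberg adjusted over all of them. CPM used TMM-scaled library sizes, and a standard error is the log2 fold change over the root of F. All pairs of libraries differed by more than sampling noise (chi-square per degree of freedom at least 34.3). Overlaps and transcript lengths came from GENCODE M21, and close copies from blastn (90% identity over 300 bases and over 50% of the other transcript). Other tools were DESeq2 1.42.0, limma 3.58.1 and matplotlib 3.10.9. The scripts were tested on simulated data.

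The members and lists were chosen with earlier results of these data known. In each role, the 2 genes of smallest p, Map1lc3b and Sqstm1 were given in every library, and other genes, such as Nbr1, Pik3r4, Atg3, Phb2 and Bcl2l1, were given so where their groups or counts called for it. Of the other pathway genes, those called by a tool or the 2 of smallest p in each list were named. Alternatives were DESeq2, limma voom with sample quality weights, RLE and library-size scaling, no filter, a filter of 1 CPM in 3 libraries, limma on log2(FPKM + 0.5) and log2(FPKM + 0.1), removal of each library's trend on length and GC content (natural splines, 4 degrees of freedom, covering 99.7% of tested genes), and each library left out in turn.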

Additional observations from a re-analysis of the deposited data

How the results depend on the processing

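Over 15 alternative settings, 520 of 570 values of single autophagy genes kept their sign and stayed short of the threshold, 49 changed sign and 1, Rb1cc1 in DESeq2, passed. The count of autophagy genes called was 0 in every setting but DESeq2, which gave 1, and 3 of the other pathway genes. Over all genes, DESeq2 called 605 and the fit with no filter 10, and fits without 1 library called 0 to 3. The unadjusted count for autophagy genes, 5, ran from 3 (without Sox9f/f replicate 6) to 8 (without Sox9f/f replicate 5) with 1 library left out, its higher part from 2 to 5 and its lower part from 1 to 3. That of all genes, 2800, ran from 1810 (without Sox9HKO replicate 10) to 3247, with 1841 without Sox9f/f replicate 8. With library-size scaling the unadjusted split was 6 higher and 0 lower among autophagy genes, and 2224 higher and 601 lower among all genes, against 1377 and 1423 with TMM. Limma on either FPKM scale also gave 6 and 0, and medians of 0.05 (0.0493 with the larger pseudocount and 0.0519 with the smaller). The median under library-size scaling was 0.0515, and with 1 library left out it ran from -0.0937 to 0.0062. The median of autophagy genes minus that of all genes was -0.06 with TMM and with library-size scaling, and over all settings ran from -0.10 (without Sox9f/f replicate 6) to 0.0003 (without Sox9f/f replicate 5).

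Signs turned as follows. With library-size scaling the log2 fold changes were 0.106 for Atg101, 0.0096 for Becn1, 0.0412 for Ambra1, 0.0618 for Atg3, 0.0836 for Atg4c, 0.0187 for Gabarap and 0.0022 for Tfeb. On log2(FPKM + 0.5) the same 7 genes stood at 0.103, 0.0063, 0.0356, 0.063, 0.0729, 0.0196 and 0.0054, and on log2(FPKM + 0.1) at 0.105, 0.0067, 0.0389, 0.065, 0.0858, 0.0197 and 0.0074. Removing the length and GC trend gave -0.12 for Ulk2, 0.22 for Atg101, -0.031 for Uvrag, 0.0402 for Gabarap and 0.046 for Tfeb. Atg101 was 0.0050 in DESeq2, 0.0049 with RLE and 0.0077 with the stricter filter. With 1 library left out, values ranged from -0.11 to 0.33 for Ulk1, -0.0376 to 0.10 for Ulk2, -0.13 to 0.13 for Atg101, -0.0551 to 0.09 for Atg2a, -0.0408 to 0.0776 for Atg7, -0.13 to 0.27 for Atg10, -0.16 to 0.11 for Atg4c, -0.21 to 0.0242 for Tfeb and -0.86 to 0.27 for Map1lc3b. The cause was not tested. No paired analysis was possible because the groups share no replicate numbers. Atg10, at 72 to 131 counts, was the least deeply counted.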

Other observations

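Part of the variation among autophagy genes ran across the genotype labels, a pattern picked out after the values were seen. In 9 of 38 genes (23.7%) the 2 highest libraries were Sox9f/f replicate 5 and Sox9HKO replicate 12, a pair that was highest for 4.76% of all genes tested. The 9 were Ulk1, Atg13, Atg101, Uvrag, Atg2a, Atg2b, Atg7, Map1lc3b and Gabarapl1, which include 3 of the 5 initiation genes and both ATG2 lipid transfer genes. Ulk1 stood at 159.6 CPM in Sox9f/f replicate 5 and 156 in Sox9HKO replicate 12, and between 97.9 and 112 in the other 4 libraries. Gabarapl1 stood at 426 and 489 CPM in that pair, and between 311 and 384 in the others. The ranking takes no account of the margin, which was narrow in other genes of the 9. Uvrag stood at 43.01 and 43.07 CPM in the pair and at 42.96 in Sox9HKO replicate 10. Atg7 stood at 56.0 and 53.9 CPM against 52.6 in Sox9HKO replicate 9. Atg2a stood at 96.2 and 94.6 CPM against 90.3 in Sox9HKO replicate 10. Sox9f/f replicate 5 was the highest library for 10 of the 38 genes and Sox9HKO replicate 12 for 9, beside 13.6% and 20.7% of all genes tested. The total counts of the pair were 22826962 and 26876941, the lowest of the 6 libraries and the second highest.

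Ncoa4, the ferritin receptor, fell outside the naming rule and is named after its values were seen. Its counts were 132, 196 and 1151 under the label Sox9f/f and 972, 1143 and 245 under Sox9HKO, so that each genotype held libraries of both a low level (132 to 245) and a high one (972 to 1151). Whether the counting moved reads between gene models was not tested.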
